A study of Arabidopsis thaliana with 12 samples.

Results

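Cassette exons are internal exons that a transcript either includes or skips as a whole. The 476 cassette exons described here, listed under 439 Arabidopsis thaliana genes, are all events of that kind in the authors' deposited tables for smeb mutants and for wild-type Col-0 under chilling, out of 1891 splicing events of every kind in those tables. For 10 of the 476 exons (2.1%) the position lies outside the listed gene, in some cases on another chromosome. They count under the listed gene but were not placed in a transcript. An exon with the same gene and position in both tables was counted once. The members were thus chosen by the FDR under 0.05 that the authors report for these contrasts, and the split by table is a description without a test. Of the 476 exons, 192 were listed for smeb alone, 195 in both tables and 89 for Col-0 alone, so that 387 were listed for smeb and 284 for Col-0. As background, 13.2% of the 10308 events of any kind tested for smeb were listed, and 13.8% of the 9710 tested for Col-0. Both numbers of tests were worked out from the pairs of p-value and FDR. The p-value stands in a column headed Adjusted P Value and was read as unadjusted. Since the same calls chose the members, nothing is read from these shares. The names for the classes refer to the tables: an exon of the class "smeb alone" was not listed for Col-0 under the same gene. The interval chr5:1874841-1874934 (94 nt) stands in both tables under different genes, AT5G06180 for smeb and AT5G06190 for Col-0, and counts as 1 exon in each of the classes smeb alone and Col-0 alone.

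RNA came from whole 12-day-old seedlings of smeb-1, smeb-2 and Col-0, each after 24 h at 4 °C and at 22 °C, with 2 replicates in each of 6 groups. The mutants carry alleles of SmEb, which encodes a subunit of the Sm ring that surrounds the spliceosomal small nuclear RNAs; the labels do not give the nature of either allele, nor whether replicates came from separate cultures. For the control, some labels state 24 h at 22 °C and another states 0 h of cold. Which groups the smeb table sets against each other, and how both alleles were combined, is not given in the sources used here. If the alleles were pooled, the smeb table would rest on more libraries than the Col-0 table. What this does to the number of events listed was not tested. For each listed event the tables give the position, the kind of event and the false discovery rate (FDR), but no read count, no size and no direction. An exon is therefore called listed, never more or less included; depth is unknown, and no spread between libraries can be given.

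Splice sites are recognised in pairs, and in a short exon the factors at its 3′ splice site upstream and its 5′ splice site downstream sit close together. Skipping a coding exon whose length is not a multiple of 3 shifts the reading frame. A so-called poison exon is the converse case: it lies inside an intron of the coding span and brings a stop codon when included. Transcripts whose stop codon lies well before the last exon junction are known substrates of nonsense-mediated decay, and genes for splicing factors of plants and animals often hold such exons.

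All positions are 1-based on TAIR10, and the sequences below were read from the RefSeq TAIR10.1 reference on the strand of the gene. The first set shows exons for which the tables gave a different form each, with 10 nt of the introns on both sides and the bases of the shorter exon in capitals. The longer form was that of smeb in ELF3 (chr2:11061296-11061473, plus strand) and UNE6 (chr3:788953-788993, plus strand) and that of Col-0 in PRR7 (chr5:640085-640202, minus strand).
ELF3: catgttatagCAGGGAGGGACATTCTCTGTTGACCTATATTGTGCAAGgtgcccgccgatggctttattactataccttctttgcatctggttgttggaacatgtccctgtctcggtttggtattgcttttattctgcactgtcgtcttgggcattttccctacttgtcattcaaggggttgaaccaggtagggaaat
PRR7: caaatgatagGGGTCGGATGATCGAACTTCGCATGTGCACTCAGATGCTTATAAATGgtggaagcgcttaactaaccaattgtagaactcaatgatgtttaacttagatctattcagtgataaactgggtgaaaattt
UNE6: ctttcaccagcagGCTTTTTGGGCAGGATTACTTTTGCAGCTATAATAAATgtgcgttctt

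The second set shows exons inside introns of the coding span, with the stop codon met in the frame of the host transcript in capitals. RBP45A (chr5:22296569-22296650, plus strand) was listed for smeb alone. RBP45B (chr1:3916146-3916232, plus strand), ATRBP45C (chr4:13556560-13556637, minus strand), SCL30A (chr3:4430483-4430643, minus strand), RVE2 (chr5:14752651-14752750, minus strand) and MPK18 (chr1:19972922-19973004, minus strand) were listed in both tables, and HSFA1D (chr1:11659470-11659547, minus strand) for Col-0 alone.
RBP45A: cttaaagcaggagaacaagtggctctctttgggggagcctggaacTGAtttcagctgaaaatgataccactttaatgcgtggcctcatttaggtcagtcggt
RBP45B: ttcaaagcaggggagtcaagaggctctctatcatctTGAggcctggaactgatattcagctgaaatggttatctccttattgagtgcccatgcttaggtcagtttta
ATRBP45C: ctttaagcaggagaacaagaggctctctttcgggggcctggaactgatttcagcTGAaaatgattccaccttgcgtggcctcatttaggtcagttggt
SCL30A: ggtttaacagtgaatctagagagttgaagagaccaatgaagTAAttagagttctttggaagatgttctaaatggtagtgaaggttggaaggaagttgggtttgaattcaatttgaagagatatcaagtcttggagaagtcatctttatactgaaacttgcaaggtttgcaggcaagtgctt
RVE2: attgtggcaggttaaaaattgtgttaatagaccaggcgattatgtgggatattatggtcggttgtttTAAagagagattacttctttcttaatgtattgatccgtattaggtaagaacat
MPK18: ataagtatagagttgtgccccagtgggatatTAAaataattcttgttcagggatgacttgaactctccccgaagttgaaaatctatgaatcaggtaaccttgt
HSFA1D: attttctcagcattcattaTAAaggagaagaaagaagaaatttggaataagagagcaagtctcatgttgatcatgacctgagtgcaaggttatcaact

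The third set shows coding exons, in capitals. The very short exons of RABG3B (chr1:8049393-8049419, plus strand) and PTM (chr5:13477873-13477901, minus strand), listed for smeb alone, and of SFH3 (chr2:9221943-9221960, minus strand) and TIM (chr2:9072476-9072502, minus strand), listed in both tables, have 20 nt of intron on each side. ACA10 (chr4:14615249-14615304, minus strand), GP ALPHA 1 (chr2:11198796-11198873, plus strand) and LCL1 (chr5:649962-650120, plus strand) were listed for smeb alone, are skipped by no annotated transcript, and have 10 nt of intron. MPK18, HSFA1D, ATRBP45C and GP ALPHA 1 were chosen after their values were seen.
RABG3B: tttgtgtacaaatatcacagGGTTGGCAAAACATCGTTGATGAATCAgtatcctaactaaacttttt
PTM: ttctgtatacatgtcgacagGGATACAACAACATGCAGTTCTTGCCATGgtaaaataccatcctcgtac
SFH3: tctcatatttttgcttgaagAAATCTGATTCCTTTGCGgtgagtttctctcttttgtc
TIM: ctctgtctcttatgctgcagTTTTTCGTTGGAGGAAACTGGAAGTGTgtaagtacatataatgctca
ACA10: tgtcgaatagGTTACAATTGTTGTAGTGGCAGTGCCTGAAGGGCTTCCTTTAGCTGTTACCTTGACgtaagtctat
GP ALPHA 1: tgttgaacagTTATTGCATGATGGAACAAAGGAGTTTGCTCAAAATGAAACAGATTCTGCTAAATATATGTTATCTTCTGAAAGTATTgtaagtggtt
LCL1: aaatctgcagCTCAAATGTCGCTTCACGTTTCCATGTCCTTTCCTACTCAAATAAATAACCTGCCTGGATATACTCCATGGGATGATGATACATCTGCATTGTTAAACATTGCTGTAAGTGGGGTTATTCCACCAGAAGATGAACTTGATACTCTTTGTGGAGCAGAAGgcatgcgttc

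The split between the tables differed among the kinds of event. Of the cassette exons, 40.3% were listed for smeb alone (95% Wilson interval 36 to 44.8), 41% in both tables (36.6 to 45.4) and 18.7% for Col-0 alone (15.5 to 22.4). Of the 1415 events of the other kinds pooled, 25.4% were listed for smeb alone, 43.3% in both and 31.3% for Col-0 alone. The kinds within this pool differed: the share listed for smeb alone was 20% of 485 alternative 3′ splice sites and 23.8% of 349 alternative 5′ splice sites, but 32.7% of 425 retained introns (28.4 to 37.3) and 34.9% of 43 events with multiple cassette exons (22.4 to 49.8), whose intervals overlap that of the cassette exons. The intervals cover counting alone, since exons are not replicates of a condition. The ranks that the FDR values imply show that 334 called events (19.7% of those called) are not in the smeb table and 7 (0.52%) are not in the Col-0 table, so an exon of the class Col-0 alone may have been called for smeb as well.

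The FDR chose the members and set the classes, so its values by class are given as a description from which nothing is read. In the authors' deposited table for smeb, 71 of 89 exons with an FDR of 0 (79.8%) were also listed for Col-0, and 16 of 69 with an FDR of 0.01 to 0.05 (23.2%). In the authors' deposited table for Col-0, 45 of 51 exons with an FDR of 0 (88.2%) were also listed for smeb, and 30 of 52 with an FDR of 0.01 to 0.05 (57.7%). Just inside the limit of 0.05 in the authors' deposited table stood AT1G26130 (0.0495) and PAE2 (0.0494) for smeb, and LDA (0.0497) and AT3G16565 (0.0486) for Col-0; what lay just outside is not in the tables.

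**Figure D1:**
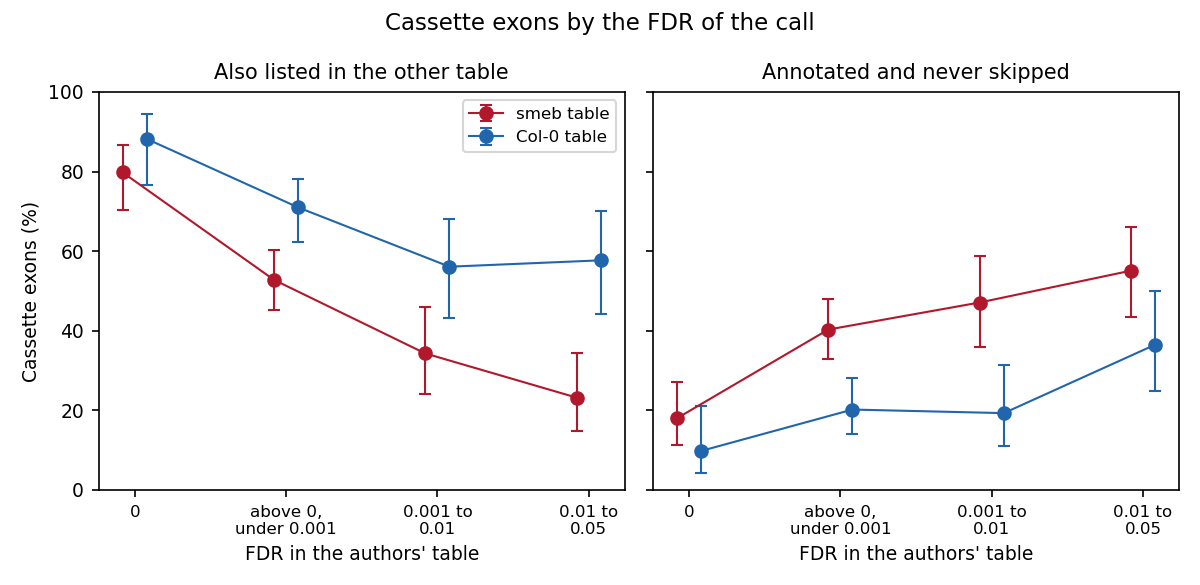
Share of cassette exons (%, vertical axes) in 4 ranges of the FDR in the authors' deposited tables (horizontal axes) that were also listed in the other table (left) and that are annotated and skipped by no annotated transcript (right). Red points are the smeb table and blue points the Col-0 table, and bars are 95% Wilson intervals. In the smeb table the share also listed for Col-0 was 79.8% at an FDR of 0 and 23.2% at 0.01 to 0.05, and the never-skipped share was 18% and 55.1%.

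The classes differed in what the reference annotation says of the exon. Exons that are annotated and skipped by no annotated transcript made up 56.2% of smeb alone (49.2 to 63.1), 22.1% of both and 19.1% of Col-0 alone (12.3 to 28.5). The classes also differ in how many exons are annotated at all: 76.6% of smeb alone, 64.1% of both and 48.3% of Col-0 alone. Among annotated exons the never-skipped share was 73.5% for smeb alone, 34.4% for both and 39.5% for Col-0 alone, so both and Col-0 alone change places. Of all annotated internal exons of protein-coding genes, 106084 of 107728 are skipped by no annotated transcript, a higher share than in any class. Exons with at least 1 annotated skipping transcript made up 20.3% of smeb alone, 42.1% of both and 29.2% of Col-0 alone. Exons inside an annotated intron made up 8.85% of smeb alone, 15.9% of both and 20.2% of Col-0 alone. Exons that share 1 of 2 boundaries with an annotated exon made up 9.9% of smeb alone, 13.3% of both and 25.8% of Col-0 alone. These shares by FDR are likewise a description. In the authors' deposited table for smeb, 18% of the exons with an FDR of 0 and 55.1% of those with an FDR of 0.01 to 0.05 were never skipped. In the authors' deposited table for Col-0 these shares were 9.8% and 36.5%. In every FDR range the share for smeb was higher than that for Col-0, although the intervals of neighbouring points overlap in some ranges.

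**Figure D2:**
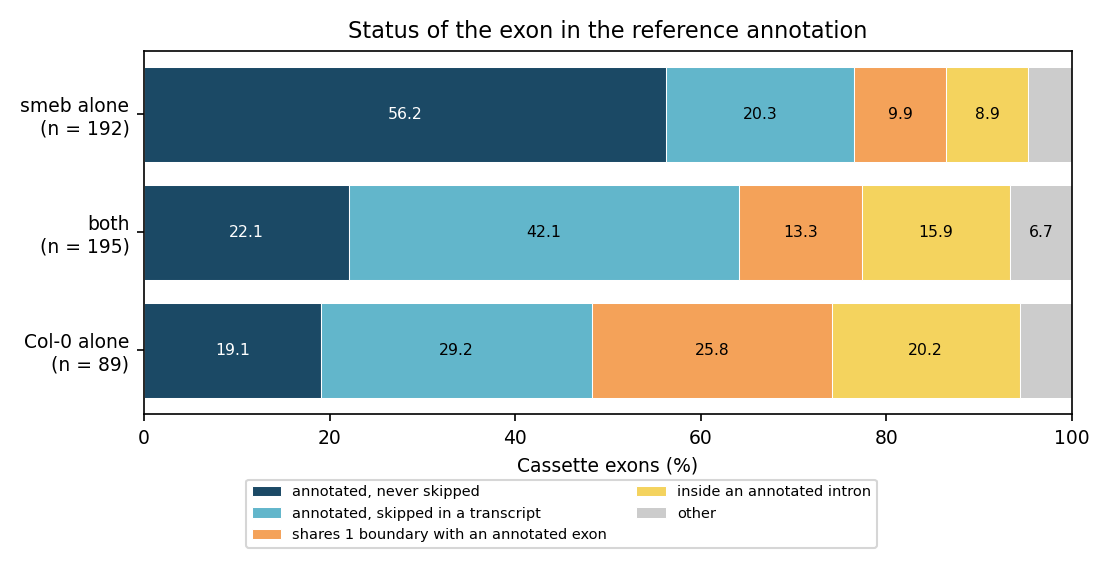
Status of the cassette exons in the reference annotation, as the share of exons (%, horizontal axis) in each class (rows). Exons that no annotated transcript skips hold 56.2% of the class smeb alone, 22.1% of both and 19.1% of Col-0 alone.

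Among the never-skipped exons of smeb alone were ACA10 (AT4G29900), a calcium pump, whose exon 16 of 35 has 56 nt, and GP ALPHA 1 (AT2G26300), a heterotrimeric G protein's alpha subunit, whose exon 6 of 14 has 78 nt. The authors' deposited table gives both an FDR of 0. Without the ACA10 exon the frame shifts and the predicted protein ends after 441 residues, against 1069 with it. Without the GP ALPHA 1 exon, 26 residues are lost in frame. PBCP (AT2G30170), a phosphatase of photosystem II core proteins, had exon 7 of 10 listed for smeb alone. UMAMIT44 (AT3G28130), a transporter gene, had exon 4 of 6 listed in both tables. The authors' deposited tables give these exons an FDR of 0 as well. AT4G02120, a CTP synthase gene, held 3 cassette exons, the highest number in a gene: exons 10, 12 and 18 of 21, with 47, 63 and 49 nt, all for smeb alone. Of the other genes, 35 had 2 cassette exons and 403 had 1.

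The cassette exons were short in every class. Their median length was 76 nt for smeb alone, 77 nt in both and 72 nt for Col-0 alone, with a range of 6 to 417 nt over all of them, against 120 nt for the 107728 annotated internal exons of protein-coding genes. The other internal exons of the same genes had a median of 110 nt. Exons of at most 51 nt made up 24.5% of smeb alone, 25.6% of both and 31.5% of Col-0 alone, against 7.33% of the other exons of the same genes. The 1644 internal exons that the annotation already shows as skipped resembled the members, with a median of 72 nt and 28.3% of at most 51 nt. Exons over 200 nt made up 3.65% of smeb alone, 6.15% of both and 8.99% of Col-0 alone, against 24.4% of all annotated internal exons and 8.45% of those annotated as skipped.

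**Figure D3:**
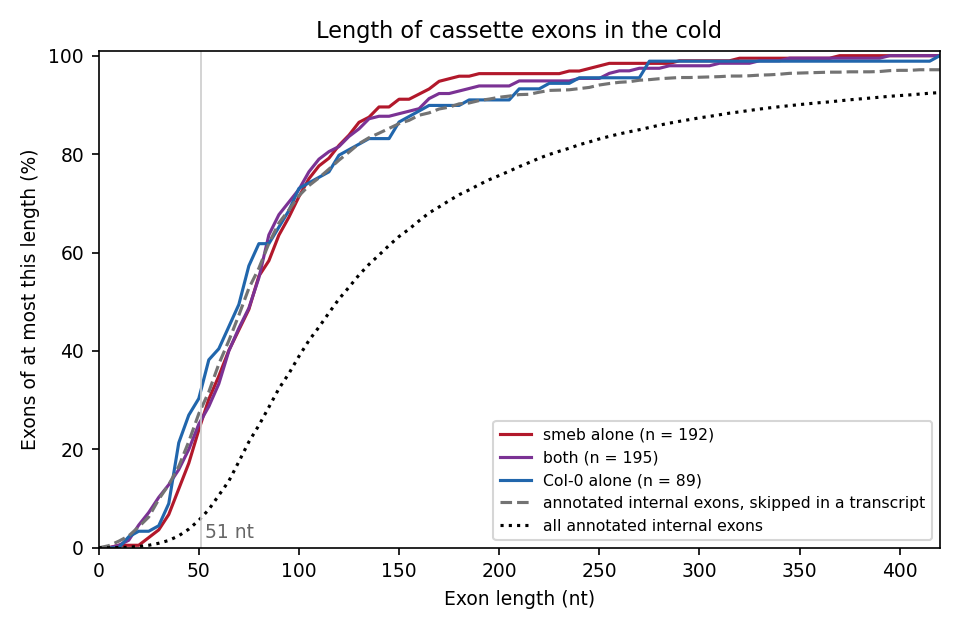
Cumulative share of exons (%, vertical axis) up to each length in nt (horizontal axis) for the 3 classes (coloured lines), for annotated internal exons that a transcript skips (dashed) and for all annotated internal exons (dotted). The classes lie close to each other and to the dashed line, with medians of 72 to 77 nt, left of the dotted line with its median of 120 nt.

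Exons of at most 30 nt were 7 of smeb alone (3.65%, interval 1.78 to 7.33), 20 of both (10.3%, 6.74 to 15.3) and 4 of Col-0 alone (4.49%, 1.76 to 11), against 0.925% of all annotated internal exons. Of the internal exons annotated as skipped, 9.85% had at most 30 nt, close to the share of both. Exons this short that keep the frame add a few residues. The 6-nt exon 2 of AT5G18230, which encodes a protein of the NOT2/NOT3/NOT5 family of transcription regulators and was singled out after its values were seen, adds 2 residues to a protein of 843. The 18-nt exon 10 of SFH3 (AT2G21540), a Sec14-like lipid transfer protein, adds 6 residues. In TIM (AT2G21170), a triosephosphate isomerase, exon 2 has 27 nt and adds 9 residues. The 21-nt exon 6 of KAC2 (AT5G65460), a kinesin-like protein of chloroplast movement, adds 7. These 4 exons are annotated, skipped by at least 1 transcript and listed in both tables.

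Of the 7 exons of at most 30 nt in smeb alone, 4 are skipped by no annotated transcript: those of RABG3B, PTM, AT1G63830 (22 nt) and AT4G35785 (23 nt), the last 2 of which were named after their values were seen. Exon 2 of RABG3B (AT1G22740), a small GTPase of membrane traffic, has 27 nt and encodes 9 residues, and its FDR was 1.74e-08 in the authors' deposited table. Exon 8 of PTM (AT5G35210), a PHD-type transcription factor with transmembrane domains, has 29 nt and shifts the frame. Among exons of at most 30 nt in the 5′ UTR, those in genes with a symbol were in NEK2 (17 nt), HHP4 (21 nt) and PAI1 (26 nt), listed in both tables, and RHC1A (12 nt), listed for Col-0 alone. The HHP4 interval (chr4:17700986-17701006) directly abuts another cassette interval of that gene (chr4:17701007-17701044), also listed in both tables. Each was counted as an exon, and how they relate was not examined. The 20-nt exon of UBC19, a ubiquitin-conjugating enzyme, was listed for Col-0 alone and the 21-nt exon of SEC, an O-linked N-acetylglucosamine transferase, in both tables; each holds a stop codon in frame. The exons of UMAMIT38 (22 nt, both tables) and NUDT5 (26 nt, Col-0 alone) could not be placed in a coding transcript.

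The place of the exon differed by class. Coding exons made up 62.5% of smeb alone (55.5 to 69), 33.8% of both (27.6 to 40.7) and 23.6% of Col-0 alone (16 to 33.4). They were 90.5% of all annotated internal exons and 69.4% of those annotated as skipped. Only annotated exons could count as coding exons, so this split partly follows the annotated shares. Of the annotated exons, 120 of 147 in smeb alone, 66 of 125 in both and 21 of 43 in Col-0 alone were coding exons. Exons inside an intron of the coding span made up 15.1% of smeb alone, 37.9% of both and 33.7% of Col-0 alone. Exons of the 5′ UTR made up 10.4% of smeb alone, 20% of both and 25.8% of Col-0 alone, against 1% of all annotated internal exons and 14.5% of those annotated as skipped. Members that are not annotated as an exon could count here, while these backgrounds hold annotated exons alone, so the sets are unlike. Of the annotated internal members, exon 2 of the host transcript was the cassette in 26.1% of smeb alone, 45.2% of both and 45.9% of Col-0 alone, against 14.4% of the other internal exons of the same genes. The share was 20.1% over all annotated internal exons and 36.3% of those annotated as skipped, above that of smeb alone.

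Among the exons with the lowest FDR, several were exon 2 of the 5′ UTR. MEE5 (AT1G06220), a GTPase of the U5 particle, had an exon of 133 nt there, IPK2a (AT5G07370), an inositol phosphate kinase, one of 87 nt, and OTLD1 (AT2G27350), an OTU-type deubiquitinase, one of 77 nt. These 3 were listed in both tables, and the 62-nt exon of SCAB1 (AT2G26770), an actin-binding protein, for Col-0 alone. All 4 are annotated and skipped in at least 1 transcript. A second exon of RABG3B (58 nt, smeb alone) and an exon of PAP26 (43 nt, Col-0 alone), an acid phosphatase, could not be placed in a coding transcript.

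**Figure D4:**
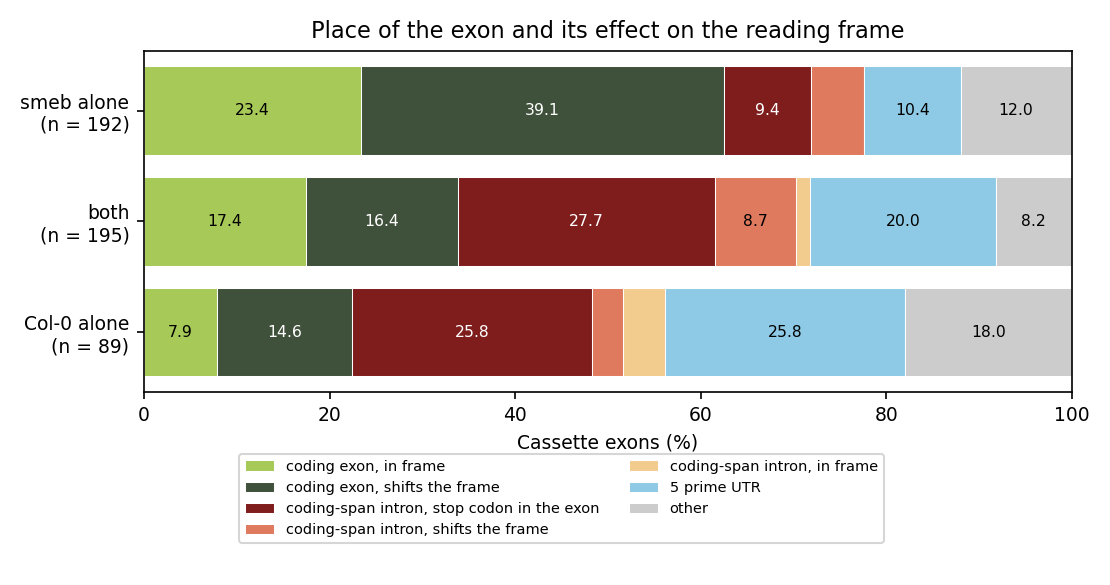
Place of the cassette exons and their effect on the reading frame, as the share of exons (%, horizontal axis) in each class (rows). Coding exons hold 62.5% of smeb alone and 23.6% of Col-0 alone. Both greens show them, except 1 coding exon of Col-0 alone that keeps the frame with a new stop and is drawn under other. Exons in coding-span introns that hold a stop codon (dark red) are 18 of the 192 exons of smeb alone, 54 of the 195 of both and 23 of the 89 of Col-0 alone.

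Leaving out the coding exons shifted the frame in 75 of 120 cases in smeb alone, 32 of 66 in both and 13 of 21 in Col-0 alone. In 100 of these 120 shifts (83.3%) the new stop codon lay over 50 nt before the last exon junction. The length was a multiple of 3 in 30.7% of all exons of smeb alone, 40% of both and 40.4% of Col-0 alone. Among coding exons this share was 37.5% in smeb alone (29.4 to 46.4), 51.5% in both (39.7 to 63.2) and 38.1% in Col-0 alone (20.8 to 59.1). It was 46.2% of the other coding internal exons of the same genes and 56.4% of the coding exons that the annotation shows as skipped. In both tables the annotated-skipped coding exons kept the frame in 21 of 32 cases, against 13 of 34 for the never-skipped ones. In smeb alone these counts were 9 of 23 and 36 of 97. The 86 exons that kept the frame without a new stop encoded 2 to 70 residues, with a median of 22.5.

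Named coding exons that shift the frame came from all classes. FC2 (AT4G24740), a LAMMER-type kinase of the family that phosphorylates SR proteins, had exon 2 (190 nt) listed for smeb alone, and the predicted protein is 49 residues without it and 427 with it. CBL1 (AT4G17615), a calcium sensor that binds CIPK kinases, had exon 3 (83 nt) listed for smeb alone, with 26 residues without it and 213 with it. PTB3 (AT1G43190), a polypyrimidine tract-binding protein, had exon 6 (124 nt) listed in both tables. BGLU9 (AT4G27820), a beta-glucosidase gene, had exon 2 (64 nt) listed for Col-0 alone.

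Exons inside coding-span introns mostly brought a stop codon. If the exon is put in, translation stops in or at the end of the exon in 18 of 29 cases for smeb alone, 54 of 74 for both and 23 of 30 for Col-0 alone, which is 95 of 133 in all (71.4%, interval 63.2 to 78.4). In 2 of the 95, PRR7 and AT2G34780 of smeb alone, the stop codon spans the junction with the next exon. The frame of the host was not poorer or richer in stop codons than the other frames. A stop codon wholly inside the exon stood in the host frame of 93 exons, and in 86 and 103 in the other frames. The new stop lay over 50 nt before the last junction in 112 of 126 exons that changed the stop (88.9%). BPM3 (AT2G39760), an adaptor of cullin-based ubiquitin ligases, ends after 344 residues with its 49-nt exon, listed for Col-0 alone, against 408 without it. The frame was kept in 7 exons, of which 3 were in both and 4 in Col-0 alone.

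Genes for splicing factors were among the hosts of such exons. Of 20 genes for SR and RS splicing factors, which bind exonic sequences and recruit the spliceosome, 8 held a cassette exon in either table. Over all 17835 protein-coding genes with an internal exon the share was 2.41%. That base, used for the other lists as well, is not limited to genes expressed in these seedlings or with an event tested, which are not known. How far a list would stand from a matched base was not tested. This gene list, like the others below, was made with earlier results of these data known. The 9 exons were 2 of smeb alone, 6 of both and 1 of Col-0 alone, and all 7 that lie in an intron of the coding span hold a stop codon in frame. SR30 (147 nt) was listed for smeb alone, SR34 (80 nt), RS31 (393 nt), RS40 (257 nt), RS41 (326 nt) and SCL30A (161 nt) in both, and SR45a (99 nt) for Col-0 alone. Both of the authors' deposited tables give the exons of SR34, RS41, SCL30A and this RS40 exon an FDR of 0. With its exon, RS40 is cut to 38 residues, against 350 without it, RS41 to 50 against 356, SCL30A to 85 against 262 and RS31 to 71 against 264. The 5′ splice site of the SCL30A exon begins with GC. The remaining 2 exons, in SR34a (245 nt) and RS40 (67 nt), lie in the 5′ UTR.

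Of 20 genes on a list of glycine-rich, polypyrimidine tract-binding and other RNA-binding proteins, 7 held a cassette exon, and 4 of the 5 exons in coding-span introns hold a stop codon: those of RBP45A, RBP45B, PTB1 and FY. PTB2 (61 nt, smeb alone) and PTB3 have a coding exon each. RBP45A, RBP45B and ATRBP45C encode related proteins with RNA recognition motifs. All pairs of exons in coding-span introns of different genes were aligned, 8770 pairs from 133 exons, with a median identity of 40.2%. At 70% or more, a limit set after the values were seen, stood 4 pairs. RBP45A and ATRBP45C shared 74 of 82 aligned columns (90.2%), RBP45B and ATRBP45C 66 of 90 (73.3%), and RBP45B and RBP45A 65 of 92 (70.7%). The stop codon met in frame begins at base 36 of the RBP45A exon, base 27 of RBP45B and base 45 of ATRBP45C. The fourth pair was that of UNE6 and AT5G17440 (38 of 52, 73.1%), which both encode LUC7-related proteins; LUC7 is a protein of the U1 particle in yeast. RS40 and RS41 shared 211 of 335 columns (63%). Paralogous exons of this kind are not independent members.

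Of 23 clock genes with an internal exon, 7 held 9 cassette exons. RVE2 (100 nt), JMJD5 (55 nt), EPR1 (66 nt) and AT5G64170, which the gene list names LNK1 (130 nt), were listed in both tables, and LCL1, also named RVE4 (159 nt, exon 4 of 9), for smeb alone. The LCL1 exon is skipped by no annotated transcript, encodes 53 residues in frame and is followed by GC. RVE2, a MYB-like factor, ends after 23 residues with its exon, against 287 without it. PRR7, a repressor of the clock, ends after 272 residues with the 47-nt form of smeb and after 281 with the 118-nt form of Col-0, against 727 without either. ELF3, a member of the evening complex, ends after 408 residues with the 178-nt form of smeb and after 366 with the 38-nt form of Col-0, against 695 without either.

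For the other lists the counts were small, from 0 to 2 genes each, and are read beside the share of 2.41% over all genes with an internal exon. Of 24 genes for small nuclear ribonucleoproteins, U2AF and associated proteins, 2 held one (8.33%), PRP39 (92 nt) and ATU2AF65A (58 nt), both for smeb alone. Of 29 genes of light signalling, LZF1 (60 nt, Col-0 alone) did (3.45%), and of 20 of abscisic acid signalling ABF2 (135 nt, both tables) did (5%). Of 22 genes of calcium signalling through CIPK, CBL and CPK proteins, CBL1 and CIPK3 (54 nt, both tables) did (9.09%). Of 30 cold-response genes found in the annotation 22 have an internal exon, and none of them held a cassette exon. By words in the product name, genes of RNA binding or splicing were 3.35% of smeb alone (6 of 179 genes, interval 1.55 to 7.12), 8.7% of both (16 of 184, 5.42 to 13.7) and 5.81% of Col-0 alone (5 of 86, 2.51 to 12.9), against 2.32% of all genes with an internal exon. The interval of smeb alone holds the background. With annotated exons alone the share was 1.42% for smeb alone, below the background, and 2.38% for Col-0 alone. Phosphatases were 2.56% of the 430 genes (1.43 to 4.52), against 1.42%. For the other 7 classes of product words, such as kinases (6.74% of the 430 genes, against 5.64%), the background share lay inside the 95% interval over all members.

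In 8 genes the tables listed overlapping cassette exons that differ at 1 end, and in all 8 one form was listed for smeb alone and the other for Col-0 alone. Neither table held overlapping cassette exons of the same gene, so a pair could only be split in this way. Nothing is read from that split. In UNE6 (41 nt for smeb, 38 nt for Col-0) and PBCP (124 nt for smeb, 127 nt for Col-0) the forms differ by 3 nt at the upstream end. They differ by 4 nt at the upstream end in AT5G61820 (49 nt for smeb, 53 nt for Col-0). In GRP7 (8 nt for smeb, 15 nt for Col-0), ELF3, PRR7, PUB9 (167 nt for smeb, 92 nt for Col-0) and VAB2 (42 nt for smeb, 99 nt for Col-0) they differ at the downstream end, by 7 to 140 nt. The longer form was that of smeb in 3 genes and that of Col-0 in 5. The VAB2 exons are preceded by GT, not AG, and the 8-nt GRP7 exon is followed by GG. Counted as 1 exon each, these pairs give 468 exons, of which 184 were listed for smeb alone, 203 in both and 81 for Col-0 alone. In 56 of the 192 exons of smeb alone the gene was also listed for Col-0 through another event, and in 28 of the 89 of Col-0 alone it was also listed for smeb. Of the authors' SmEb-dependent list, 61 of 420 rows (14.5%) were cassette exons, and of their SmEb-independent list 136 of 383 (35.5%). All of the first were exons of Col-0 alone and all of the second of smeb alone. These counts equal those of the exons of each class whose gene had no event in the other table. The lists thus restate the split by table, and nothing is read from them.

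In each class the median splice-site scores of the members were lower than those of other internal exons of the same genes. Only exons with AG before and GT after were scored, 440 of the members. The 134 of these that are not annotated as an exon had medians of 5.63 at the 5′ and 5.76 at the 3′ splice site. The annotated ones had 6.52 and 7.19. A score sums, over 3 exon and 6 intron bases at the 5′ splice site and 15 intron bases and 1 exon base at the 3′ splice site, the log2 odds of each base in 129275 annotated GT-AG introns against equal shares of the 4 bases. The median score at the 5′ splice site was 6.53 for smeb alone, 6.3 for both and 5.85 for Col-0 alone, against 7.19 for other internal exons of the same genes. At the 3′ splice site it was 6.76 for smeb alone, 7.48 for both and 5.77 for Col-0 alone, against 7.92 for the same other exons. Exons skipped in the annotation had medians of 5.83 at the 5′ and 6.56 at the 3′ splice site. The quartiles of all groups overlap. Among never-skipped members alone, the 3′ median was 6.88 for smeb alone, 8.24 for both and 7.24 for Col-0 alone. The 27-nt exon of RABG3B had a 5′ score of -0.04.

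**Figure D5:**
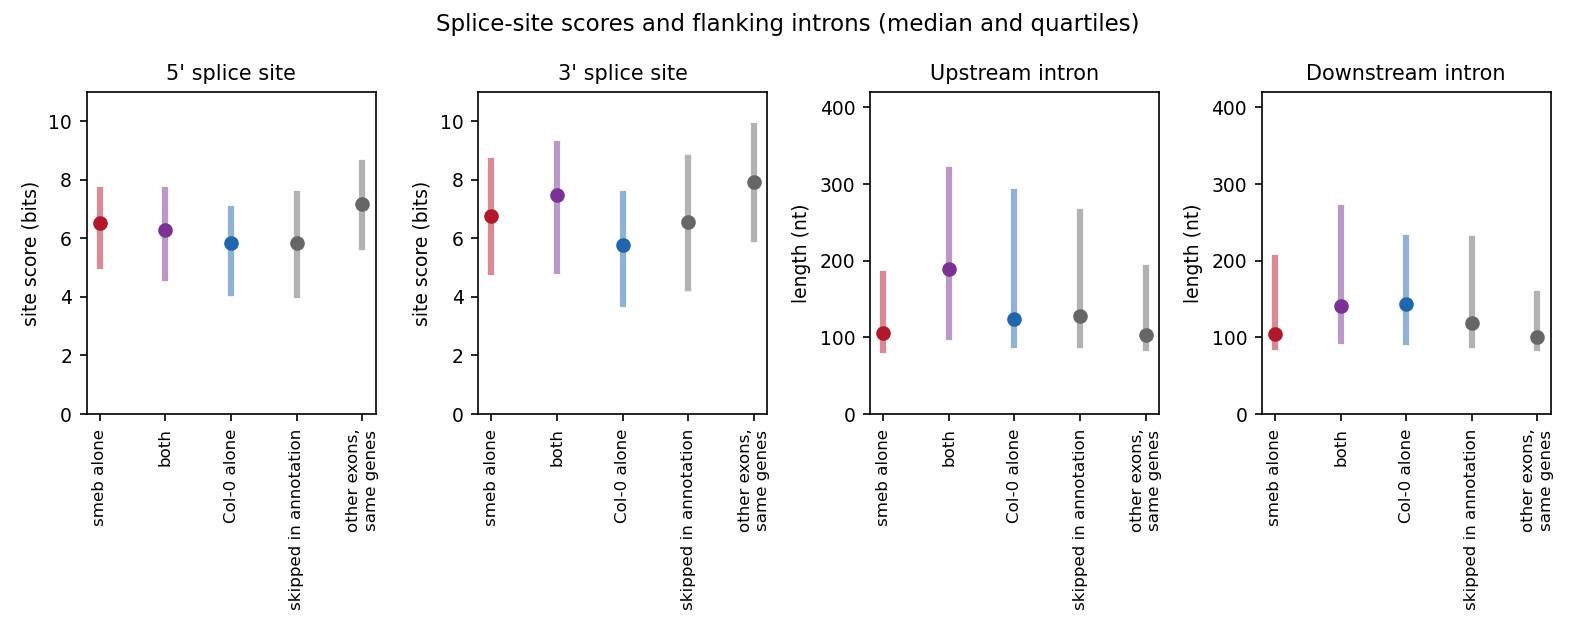
Scores of the 5′ and 3′ splice sites (log2 odds) and lengths of the upstream and downstream introns (nt), as medians (points) and quartiles (bars), for the 3 classes, for annotated internal exons that a transcript skips and for other internal exons of the same genes. The upstream intron has a median of 105.5 nt for smeb alone, 189 nt for both and 124 nt for Col-0 alone.

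The base before the AG at the 3′ splice site was C in 53.7% of smeb alone (46.3 to 60.9), 64.3% of both (57.1 to 70.9) and 40.7% of Col-0 alone (30.7 to 51.6), against 65.5% in other exons of the same genes. Among members that are not annotated as an exon the share was 37.1% for smeb alone (13 of 35), 76.7% for both (46 of 60) and 30.8% for Col-0 alone (12 of 39). Among never-skipped members it was 63.5% for smeb alone, 64.3% for both and 64.7% for Col-0 alone. The upstream intron had a median of 105.5 nt for smeb alone, 189 nt for both and 124 nt for Col-0 alone, against 103 nt for other exons of the same genes. The downstream intron had a median of 105 nt for smeb alone, 141 nt for both and 144 nt for Col-0 alone, against 100 nt for other exons of the same genes. The GC content of the exons had a median of 40% for smeb alone, 38.9% for both and 39.6% for Col-0 alone, against 42.9% for other exons of the same genes. Internal exons that the annotation shows as skipped had C before the AG in 44.9%. Their medians were 128 nt for the upstream intron, 119 nt for the downstream intron and 39.5% for the GC content.

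At 22 °C the authors' deposited table for smeb held 5 of the 476 exons: AT1G03960, AT1G08110, AT2G30600, AT5G53048 and the 47-nt form of PRR7. The PRR7 form was listed for smeb alone in the cold, and the other 4 in both tables.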

How the data were processed

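The members, gene lists and alternatives were chosen with earlier results of these data known. Tools named in the submitters' processing notes are Trimmomatic 0.32 and TopHat2 2.0.13, with the TAIR10 build; what called the events, with which filters and strand setting, is not given in the sources used here. For each event the authors deposited an FDR and a column headed Adjusted P Value, which was read here as the p-value before adjustment. The numbers of tests and of called events outside the tables rest on that reading. No value per sample was given, so no test across samples was run and the depth and the precision it gives are unknown.

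Intervals were compared with the TAIR10.1 annotation of RefSeq. An exon is annotated where both boundaries match, and never skipped where no transcript of the gene has an intron across it. Frames were read in the annotated transcript with the lowest name that holds the exon or the intron around it. The number of events tested is that for which the rank implied by p-value and FDR is whole within 0.0001 (88.4% of events for smeb, 85.3% for Col-0). Shares have 95% Wilson intervals. Exons were aligned globally (match 1, mismatch -1, gap -2 and -0.5). Procedures were tested on simulated data, and 7 of 7 checks passed. The design allowed for values per sample, which the files do not hold.

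Named are, per class, the 8 exons with the lowest FDR in genes with a symbol, exons of at most 30 nt, up to 15, members of the lists, genes with 3 exons and overlapping pairs; others are said to be chosen after their values were seen. Python 3.11.15 was used.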

Additional observations from a re-analysis of the deposited data

How the results depend on the processing

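Of 135 values under alternatives, 121 stayed within the 95% interval of the reported value. Smeb alone stayed the larger class beside Col-0 alone under every alternative for the split: at an FDR under 0.01 in the authors' deposited tables the counts were 163 for smeb alone, 155 for both and 77 for Col-0 alone. Among the share of short exons, a limit of 30 nt in place of 51 nt gave 3.65% for smeb alone, 10.3% for both and 4.49% for Col-0 alone, and annotated exons alone gave 20.9% of at most 51 nt for Col-0 alone. The share with a length that is a multiple of 3, which is 40% for both over all exons, was 51.5% among annotated coding exons. The share that is never skipped became 47.6% for smeb alone and 16.4% for both at an FDR under 0.001 in the authors' deposited tables; among annotated exons alone, an alternative chosen after seeing the data, it was 73.5% for smeb alone, 34.4% for both and 39.5% for Col-0 alone. Fewer exons enter under each of these by construction. Of 54 values for product classes 4 left the interval: with annotated exons alone, genes of RNA binding or splicing were 1.42% of smeb alone and 2.38% of Col-0 alone, and phosphatases and chloroplast genes 0% of Col-0 alone. No paired analysis was possible because no file holds values per sample; the fit with the replicate number as a block and the fits without each replicate were therefore not run. The 334 called events outside the smeb table limit the class of Col-0 alone.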
